A study of Rattus norvegicus with 12 samples.

Results

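Many conjugating enzymes attach glutathione, glucuronic acid or sulfate to reactive compounds, and aldehyde dehydrogenases oxidise aldehydes. In whole lung of rats given the plant alkaloid monocrotaline, the genes described here carry names of these families. Some of them may lack such an activity. They were chosen by name: every gene of the cytosolic, mitochondrial or membrane glutathione S-transferases (GST), the UDP-glycosyltransferases (UGT), the sulfotransferases (SULT) and the aldehyde dehydrogenases (ALDH) with at least 10 counts in at least 4 of 12 libraries. Of 32883 genes in the deposited table, 64 carried such a name, and 38 passed the count limit: 15 GST and 3 membrane GST, 2 UGT, 2 SULT and 16 ALDH genes. The other 26 names, among them 10 of 12 SULT genes and 5 of 7 UGT genes, lay under the limit, 5 of them with 0 counts in every library. All 38 members were tested, and 35 of them had at least 10 counts in all 12 libraries. Just inside the limit stood Aldh1l2 and Ugt8, with at least 10 counts in 8 libraries each, and Gsto2, with as many in 9 libraries. Just outside it stood Aldh8a1, Gstm5 and Sult1d1, with at least 10 counts in 2 libraries each. Aldh1l2 passed only through the monocrotaline libraries, so the rule itself favoured a higher level there than in Control. No count that includes it stands as support for a direction.

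RNA-seq was done on whole lung of wild-type rats in 3 groups of 4 libraries: rats labelled Control, monocrotaline rats given vehicle for 10 days (MCT-vehicle) and monocrotaline rats given ferrostatin-1 for 10 days (MCT-Fer-1). Monocrotaline injures the lung vessels and is used to model pulmonary hypertension, and ferrostatin-1 inhibits ferroptosis, cell death through the peroxidation of membrane lipids. The labels give a time of 25 days for every library, controls included, without saying from which day, and name no agent for the controls, so that against Control the alkaloid and the vehicle dosing cannot be told apart. Strain, sex and age were not given in the sources used here, and no source says that each library is from its own rat, so the p-values rest on a spread that may be technical.

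Conjugating enzymes make reactive or fat-soluble compounds more soluble, so that transporters can carry them out of the cell. The liver turns monocrotaline into a reactive pyrrole that glutathione can bind. Lipid peroxidation releases reactive aldehydes such as hydroxynonenal, which GST enzymes can join to glutathione and aldehyde dehydrogenases can oxidise to acids. In the lung many of these enzymes are known from club cells, the secretory cells of the small airways.

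Library totals ran from 16640022 to 18229992 counts in Control, from 13654695 to 24016262 in MCT-vehicle and from 11601929 in MCT-Fer-1 1 to 70627239 in MCT-Fer-1 4. The 38 members together took 0.231% to 0.310% of the counts of a library. Normalised counts (CPM, counts scaled to library size) below rest on library sizes scaled by TMM, a factor that offsets differences in library composition. Lung markers were abundant in all 12 libraries, with 10 alveolar type 2 markers summing to between 21310.1 and 38467 CPM. Liver cell markers (10 genes) summed to between 184 and 312 CPM over the libraries, nearly all from Tf, Serpina1 and Cyp2e1, the 3 that could be tested, of which Serpina1 fell in MCT-vehicle against Control. The others, among them the albumin gene Alb with means of 0.0300 to 0.116 CPM in the groups, were too low to test. Heart muscle markers summed to 434 CPM in MCT-vehicle 2 and 271 CPM in Control 4, above all other libraries, and values without this pair of libraries are given where they change a call.

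In lungs of monocrotaline rats given vehicle, 3 members rose and 3 fell against Control, and 32 had no call. The phenol sulfotransferase gene Sult1a1 fell to less than its lowest Control value in every library, while the glucuronosyltransferase gene Ugt1a5 and the omega class GST gene Gsto1 rose to 1.37-fold each. The folate enzyme gene Aldh1l2 rose from near the detection limit, and the aldehyde dehydrogenase genes Aldh3a1 and Aldh9a1 fell to 0.502 and 0.798 of the Control level. The calls covered 15.8% of the members, against 18.6% of all 15257 genes tested (edgeR quasi-likelihood test, Benjamini-Hochberg adjusted p below 0.05 over all genes tested). By direction, 10.3% of all genes rose and 8.28% fell. The counts of members here include Aldh1l2, which passed the count limit only through the monocrotaline libraries. The median log2 fold change of the members was -0.05, against 0.02 over all genes, with 15 members positive and 23 negative. Values of the groups did not overlap for 8 of 38 members, against 21.5% of all genes. Without MCT-vehicle 2 and Control 4, left out together after their heart muscle transcripts were seen, 2 members were called, Sult1a1 and Aldh1l2. That fit called 10.9% of all genes, against 18.6% over all libraries. The log2 fold changes of the other 4 were then 0.46 for Ugt1a5, 0.43 for Gsto1, -0.33 for Aldh9a1 and -0.92 for Aldh3a1, beside 0.45, 0.45, -0.33 and -0.996 over all libraries. Without Control 4 alone 3 members were called, with Ugt1a5 beside Sult1a1 and Aldh1l2, and 13.1% of all genes.

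**Figure D1:**
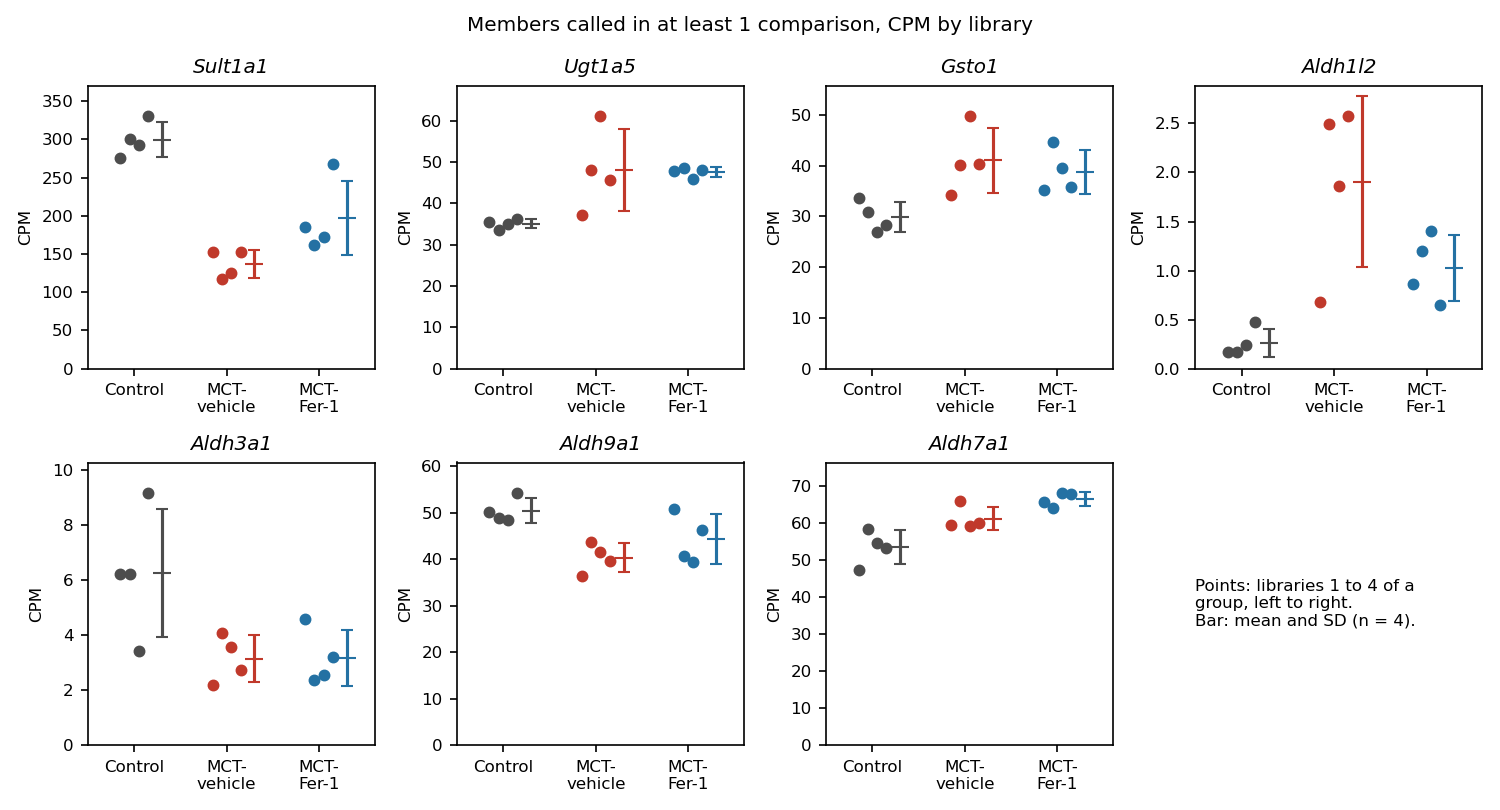
Each panel plots 1 of the 7 members called in at least 1 comparison, with CPM on a linear vertical axis from 0 and the 3 groups side by side. Points are libraries, and the bar beside them is the mean with the SD of 4 libraries. Sult1a1 lies between 276 and 330.2 CPM in Control, between 117 and 153 CPM in MCT-vehicle and between 162 and 268 CPM in MCT-Fer-1.

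Sulfotransferases move a sulfonate group from the donor PAPS to phenols, steroids and amines, and Sult1a1 (ENSRNOG00000019342) acts mainly on small phenols. Sult1a1 stood at 276, 299.8, 292 and 330.2 CPM in Control 1 to 4, at 153, 117, 124 and 153 CPM in MCT-vehicle 1 to 4, and at 186, 162, 172 and 268 CPM in MCT-Fer-1 1 to 4. All 4 MCT-vehicle libraries were lower than every library of the other groups, and the MCT-Fer-1 libraries lay between both groups without overlap. From 299.6 ± 22.7 CPM in Control (SD, n = 4 libraries, as for all means below), Sult1a1 fell to 137 ± 18.7 CPM in MCT-vehicle (log2 fold change -1.13 ± 0.15, SE; adjusted p = 4.00e-04, edgeR). The call held in all 21 alternatives tried, with and without each library. In whole tissue, fewer cells of a type and less RNA per cell cannot be told apart.

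Sums of endothelial and of red cell markers were lower in MCT-vehicle than in Control, beside Sult1a1. Of all genes, 8.28% fell there. The 9 of 10 endothelial markers found in the table had sums between 4642 and 5113 CPM in Control, between 2366 and 3236 CPM in MCT-vehicle, and between 3022 and 3682 CPM in MCT-Fer-1, and 4 of the 9 fell and 1 rose in MCT-vehicle against Control. None of them was at 0. In MCT-Fer-1 4, which had the highest Sult1a1 level of its group, the endothelial sum was 3029 CPM, while MCT-Fer-1 1 and 3 had 3682 CPM each with 186 and 172 CPM of Sult1a1. All 5 red cell markers found in the table fell too, with sums of 3288 to 5418 CPM in Control and 1702 to 2238 CPM in MCT-vehicle. In MCT-Fer-1 these sums were 1637 to 3348 CPM. The part of endothelial or red cell markers in the Sult1a1 result was not tested.

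**Figure D2:**
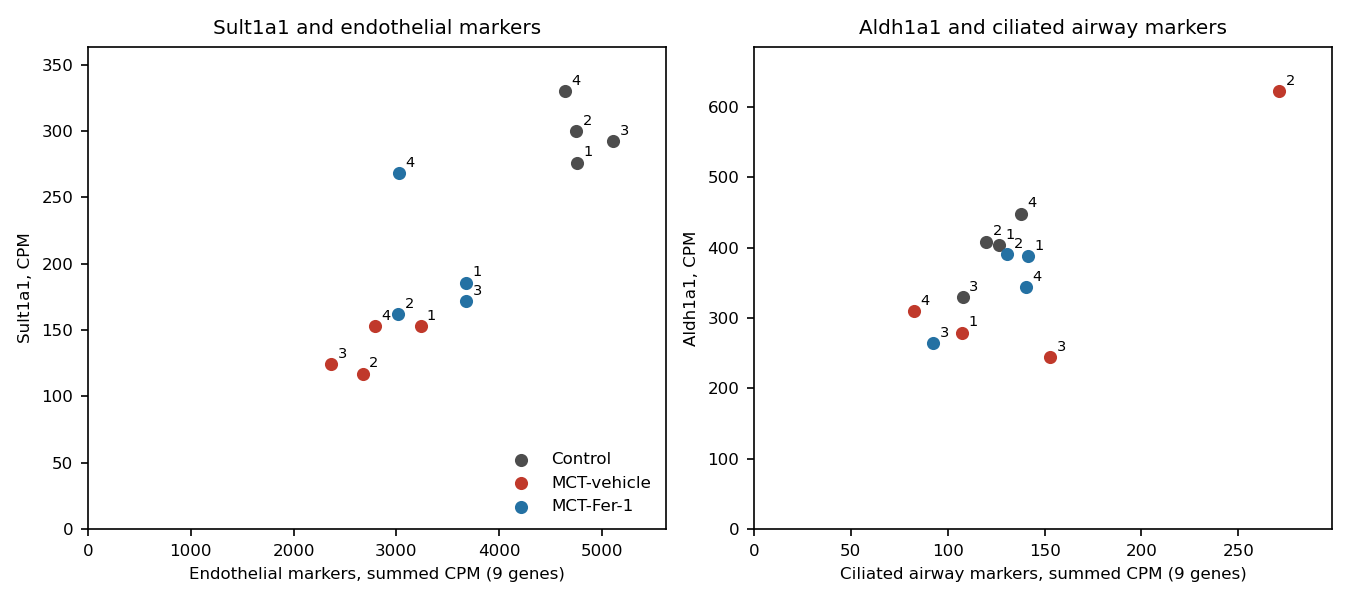
Each point is 1 library, numbered within its group, with the summed CPM of a list of cell type markers on the horizontal axis and the CPM of a member on the vertical axis. On the left, the Control libraries have the highest endothelial sums (4642 to 5113 CPM) and the highest Sult1a1 levels, and on the right MCT-vehicle 2 stands apart with 271 CPM of ciliated cell markers and 623 CPM of Aldh1a1.

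Glucuronosyltransferases of the UGT1A group are made from 1 locus by joining alternative first exons to shared last exons, and Ugt1a5 (ENSRNOG00000018740) was the only such symbol in the table, so its counts may hold reads of other forms. Ugt1a5 stood at 35.4, 33.6, 35.0 and 36.2 CPM in Control, at 37.1, 48.2, 61.1 and 45.7 CPM in MCT-vehicle, and at 47.8, 48.6, 45.9 and 48.0 CPM in MCT-Fer-1. The 8 monocrotaline libraries were all higher than the 4 Control libraries, MCT-vehicle 1 by the least. The rise from 35.0 ± 1.095 to 48.0 ± 9.90 CPM in MCT-vehicle was a log2 fold change of 0.45 ± 0.12 (adjusted p = 0.0161, edgeR). This call was lost without MCT-vehicle 2 and Control 4 together (adjusted p = 0.0655). In Control Ugt1a5 had the smallest spread of all members, with an SD of 3.13% of the mean.

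The other members of these families had no call. Ugt8, which makes galactosylceramide, a lipid of myelin, was near the detection limit at 0.619 ± 0.171 CPM in Control and 0.485 ± 0.277 CPM in MCT-vehicle. Sult5a1 stood at 3.32 ± 0.920 CPM in Control and 3.73 ± 1.02 CPM in MCT-vehicle.

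Among the 15 genes grouped by name as cytosolic and mitochondrial GSTs, Gsto1 rose and 14 had no call. Log2 fold changes of the latter ran from -0.36 to 0.38. Of all genes, 10.3% rose and 8.28% fell. Omega class enzymes reduce dehydroascorbate and mixed disulfides of glutathione rather than conjugating typical substrates. Gsto1 (ENSRNOG00000028746) stood at 33.6, 30.9, 27.0 and 28.2 CPM in Control, at 34.2, 40.1, 49.7 and 40.2 CPM in MCT-vehicle, and at 35.2, 44.6, 39.5 and 35.8 CPM in MCT-Fer-1. Every monocrotaline library was higher than every Control library, though MCT-vehicle 1 lay within 1 CPM of Control 1. Gsto1 rose from 29.9 ± 2.96 to 41.1 ± 6.42 CPM (log2 fold change 0.45 ± 0.12; adjusted p = 0.0180, edgeR). It lost the call without Control 3 (adjusted p = 0.0590), without Control 4 (0.0547) and without MCT-vehicle 2 and Control 4 together (0.0838).

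Markers of macrophages and mast cells rose beside these genes, where 10.3% of all genes rose in MCT-vehicle against Control. Of 10 macrophage markers 8 rose in MCT-vehicle against Control, and the sum went from between 911 and 1004 CPM in Control to between 1262 and 1898 CPM, with 1286 to 1447 CPM in MCT-Fer-1. In Control the macrophage receptor gene Marco was at 0 counts in all 4 libraries. All 8 mast cell markers rose, from sums of 42.7 to 63.9 CPM to sums of 315 to 1107 CPM in MCT-vehicle and 305 to 640.3 CPM in MCT-Fer-1. Their part in the rise of Gsto1, Ugt1a5 and Aldh1l2 was not tested.

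The GST enzymes best known for lipid aldehydes and reactive compounds had no call in MCT-vehicle against Control. Gsta4, which conjugates hydroxynonenal, stood at 118 ± 21.2 CPM in Control and 102 ± 16.7 CPM in MCT-vehicle (log2 fold change -0.22 ± 0.14; adjusted p = 0.325, edgeR). The pi class gene Gstp1 stood at 142, 149, 153 and 159 CPM in Control and at 147, 107, 78.7 and 147 CPM in MCT-vehicle. Its MCT-vehicle libraries 2 and 3 were lower than all of Control and the other 2 were not, and the log2 fold change of -0.33 ± 0.17 had an edgeR adjusted p of 0.214. The mu class gene Gstm1 stood at 74.0 ± 12.7 CPM in Control and 80.0 ± 33.9 CPM in MCT-vehicle, where MCT-vehicle 2 had 130.1 CPM and the other 3 libraries 57.6 to 70.6 CPM. Gstt1 of the theta class stood at 14.8 ± 2.43 and 14.7 ± 2.51 CPM, and Gstk1, found in mitochondria and peroxisomes, at 14.6 ± 2.93 and 12.7 ± 0.566 CPM. Genes of the alpha, mu and theta classes have near-identical copies, so reads may be split between them, and their levels are uncertain for that reason.

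The 3 membrane GST genes had no call. Mgst1, a membrane enzyme that also reduces lipid hydroperoxides, stood at 185 ± 21.6 CPM in Control, with 185 ± 28.3 CPM in MCT-vehicle, and MCT-Fer-1 had 186 ± 15.05 CPM. The 95% interval of its log2 fold change in MCT-vehicle against Control ran from -0.24 to 0.24. Mgst2 and Mgst3, relatives of leukotriene C synthase, had log2 fold changes of -0.20 ± 0.11 (adjusted p = 0.245, edgeR) and -0.18 ± 0.10 (adjusted p = 0.260, edgeR).

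Promoter sequence from RefSeq is shown for the 3 members called in MCT-vehicle that the reference table holds, Sult1a1, Gsto1 and Aldh9a1, and for Gstp1, which holds a match to each motif searched. The reference table, on build GRCr8, held 32 start sites of 30 of the 38 members, matched by symbol, and the 250 bases before each start were searched on both strands. The motifs were TGACNNNGC, the core bound by NRF2, a factor that switches on glutathione genes, and GCGTG, the core bound by the aryl hydrocarbon receptor. The windows are chr1:190706113-190706362 (minus strand) for Sult1a1, chr1:256662281-256662530 (plus strand) for Gsto1, chr13:82038429-82038678 (plus strand) for Aldh9a1 and chr1:210769706-210769955 (minus strand) for Gstp1. Each is written 5′ to 3′ along its gene and ends at the base before the start, with matches to either motif, on either strand, in capitals.
Sult1a1: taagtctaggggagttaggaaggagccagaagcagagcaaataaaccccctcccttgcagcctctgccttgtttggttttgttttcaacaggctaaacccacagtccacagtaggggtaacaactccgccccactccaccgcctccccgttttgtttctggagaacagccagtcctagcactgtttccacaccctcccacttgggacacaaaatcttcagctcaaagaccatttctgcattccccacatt
Gsto1: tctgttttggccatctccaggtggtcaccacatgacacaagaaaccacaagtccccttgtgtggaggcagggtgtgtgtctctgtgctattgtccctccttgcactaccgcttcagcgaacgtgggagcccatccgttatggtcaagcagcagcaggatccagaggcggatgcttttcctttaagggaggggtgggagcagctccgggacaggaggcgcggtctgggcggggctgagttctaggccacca
Aldh9a1: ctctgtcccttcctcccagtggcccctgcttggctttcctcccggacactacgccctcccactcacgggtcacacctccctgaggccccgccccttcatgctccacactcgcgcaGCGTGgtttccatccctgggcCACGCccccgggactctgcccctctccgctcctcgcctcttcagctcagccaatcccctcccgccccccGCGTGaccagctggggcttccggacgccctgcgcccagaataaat
Gstp1: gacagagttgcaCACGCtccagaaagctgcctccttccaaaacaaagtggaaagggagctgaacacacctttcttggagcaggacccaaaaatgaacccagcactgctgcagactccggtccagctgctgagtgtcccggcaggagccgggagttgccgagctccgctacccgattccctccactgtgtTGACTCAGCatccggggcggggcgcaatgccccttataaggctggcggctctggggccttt

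The Gstp1 window held TGACTCAGC, a match to TGACNNNGC that starts 61 bases before the gene's start, and a GCGTG on the opposite strand 238 bases before it. Aldh9a1 had 3 GCGTG matches, 135, 114 and 45 bases before its start, and no match was found in the windows of Sult1a1 and Gsto1. Over the members, TGACNNNGC was found in 6 of 32 windows (18.8%), against 10.1% of all 33469 windows in the table. GCGTG was found in 12 of 32 (37.5%), against 25.9%. Both motifs were found for Aldh1a2, Gsta3 and Gstcd as well as for Gstp1, and they overlap in Gstcd. These matches are letters in a window and were not tested against the expression values.

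The aldehyde dehydrogenases that make retinoic acid from retinal, Aldh1a1, Aldh1a2 and Aldh1a3, had no call. MCT-vehicle 2 stood apart in Aldh1a1, the best known of them. Aldh1a1 stood at 404, 409, 329.8 and 448 CPM in Control, at 279, 623, 245 and 310.2 CPM in MCT-vehicle, and at 388, 391, 264 and 344 CPM in MCT-Fer-1. MCT-vehicle 2 was the highest of the 12 libraries, and the other 3 MCT-vehicle libraries lay lower than all of Control. The log2 fold change of Aldh1a1 was -0.13 ± 0.26 (adjusted p = 0.775, edgeR) over all libraries and -0.52 (adjusted p = 0.0324, edgeR) without MCT-vehicle 2. This was the only 1 of 21 alternatives with a call, and there was none without MCT-vehicle 2 and Control 4 together. MCT-vehicle 2 also had the highest sum of 9 ciliated cell markers, 271 CPM against 82.5 to 153 CPM elsewhere, and the high heart muscle sum given above. Its sums of fibroblast and pericyte markers (2171 CPM, against 989 to 1598 CPM) and smooth muscle markers (1823 CPM, against 808 to 1767 CPM) were the highest too. Its sum of 10 club and secretory cell markers was 10195 CPM, against 6546 to 8531 CPM in the other MCT-vehicle libraries, 8768 to 10261 CPM in Control and 6622 to 10547 CPM in MCT-Fer-1. Their part in the Aldh1a1 level was not tested.

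Aldh1a2 stood at 65.8 ± 6.10 CPM in Control and 55.3 ± 22.4 CPM in MCT-vehicle, where the libraries ran from 37.5 to 85.7 CPM. Aldh1a3 stood at 59.0 ± 15.6 CPM in Control and 79.2 ± 15.9 CPM in MCT-vehicle (log2 fold change 0.42 ± 0.20; adjusted p = 0.171, edgeR), and was called without Control 1 (0.0418). Aldh1a7, a rodent copy close to Aldh1a1 whose reads may be split with it, ran from 0.783 to 24.9 CPM over the 12 libraries. It had the widest spread of all members in every group, with an SD of 79.6% of the mean in Control.

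**Figure D3:**
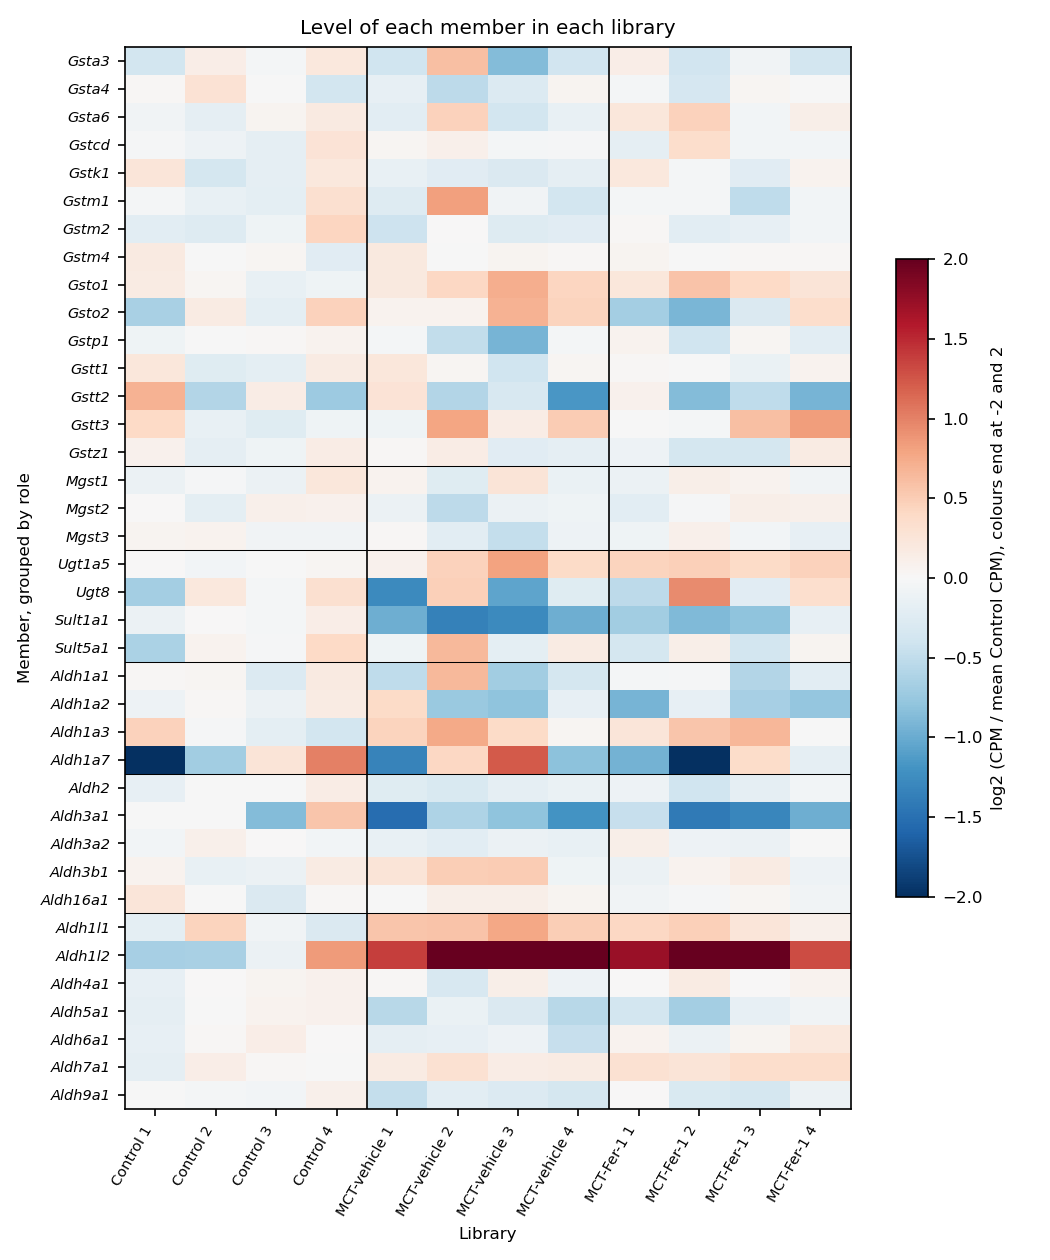
Rows are the 38 members grouped by role, columns the 12 libraries, and the colour is log2 of CPM over the mean Control CPM, with the scale ending at -2 and 2. Sult1a1 is blue in all MCT-vehicle libraries and Aldh1l2 red in all monocrotaline libraries, while Aldh1a7 changes colour from library to library within each group.

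Of the 5 members grouped here as aldehyde-clearing, Aldh3a1 fell and 4 had no call, where 8.28% of all genes fell. The grouping does not show that each of them has that activity. Aldh3a1 (ENSRNOG00000002331) oxidises aromatic and medium-chain aldehydes and is induced through the aryl hydrocarbon receptor. Aldh3a1 stood at 6.21, 6.20, 3.43 and 9.17 CPM in Control, at 2.18, 4.08, 3.58 and 2.73 CPM in MCT-vehicle, and at 4.57, 2.35, 2.53 and 3.19 CPM in MCT-Fer-1. Control 3 lay within the range of MCT-vehicle, so the groups overlapped. It fell from 6.26 ± 2.34 to 3.14 ± 0.851 CPM (log2 fold change -0.996 ± 0.31; adjusted p = 0.0410, edgeR). The call was lost in 11 of 21 alternatives, with adjusted p of 0.0530 to 0.132 without Control 1, 2 or 4, MCT-vehicle 1, 3 or 4, or MCT-Fer-1 4, and 0.0974 without MCT-vehicle 2 and Control 4 together. It was also lost with voom (0.0823) and in a fit of the compared groups alone (0.0546).

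Aldh2, the mitochondrial enzyme for acetaldehyde and lipid aldehydes, stood at 467 ± 40.5 CPM in Control and 402 ± 21.1 CPM in MCT-vehicle (log2 fold change -0.22 ± 0.09; adjusted p = 0.104, edgeR). Aldh3a2, the fatty aldehyde enzyme of the endoplasmic reticulum, stood at 126, 141, 131 and 127 CPM in Control and 118, 113, 121 and 119 CPM in MCT-vehicle. These groups did not overlap, yet the log2 fold change of -0.16 ± 0.06 missed the threshold (adjusted p = 0.106, edgeR). Aldh3b1, another enzyme of lipid aldehydes, stood at 22.5 ± 2.33 and 27.9 ± 5.14 CPM (adjusted p = 0.122, edgeR), and was called without MCT-vehicle 4 (0.0253). Aldh16a1 stood at 53.8 ± 7.99 and 56.4 ± 2.33 CPM.

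Aldehyde dehydrogenases of folate, amino acid and carnitine metabolism held 1 member that rose and 1 that fell, of 7. Of all genes, 10.3% rose and 8.28% fell. The member that rose, Aldh1l2, passed the count limit only through the monocrotaline libraries. Aldh1l2 (ENSRNOG00000008586), the mitochondrial enzyme that oxidises formyltetrahydrofolate, had 3, 3, 4 and 8 counts in Control, 16, 55, 25 and 49 counts in MCT-vehicle, and 10, 26, 37 and 46 counts in MCT-Fer-1. In CPM these were 0.165, 0.166, 0.241 and 0.474 in Control, 0.684, 2.49, 1.86 and 2.57 in MCT-vehicle, and 0.862, 1.198, 1.40 and 0.643 in MCT-Fer-1. All 8 monocrotaline libraries were higher than all of Control. The log2 fold change in MCT-vehicle was 2.85 ± 0.51 (adjusted p = 0.00236, edgeR), and its size is uncertain because the Control counts lie near the floor of 3 counts, which covers counting error only. As Aldh1l2 passed the count limit only through the monocrotaline libraries, these values are a description.

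Aldh1l1, its relative in the cytosol, stood at 2.20, 3.43, 2.41 and 2.07 CPM in Control and 3.72, 3.76, 4.33 and 3.57 CPM in MCT-vehicle. The groups did not overlap, and the log2 fold change of 0.60 ± 0.20 just missed the threshold (adjusted p = 0.0523, edgeR). It was called with upper quartile scaling (0.0497), with DESeq2 (0.0331) and without Control 2 (0.0191).

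Aldh9a1 (ENSRNOG00000004027) oxidises the aldehyde that precedes carnitine. Aldh9a1 stood at 50.2, 48.9, 48.5 and 54.3 CPM in Control, at 36.4, 43.7, 41.6 and 39.6 CPM in MCT-vehicle, and at 50.9, 40.8, 39.4 and 46.3 CPM in MCT-Fer-1. MCT-vehicle lay lower than Control without overlap, and MCT-Fer-1 overlapped both. It fell from 50.5 ± 2.66 to 40.3 ± 3.14 CPM (log2 fold change -0.33 ± 0.09; adjusted p = 0.0240, edgeR). The call was lost without Control 4 (0.0715), MCT-vehicle 1 (0.0633), MCT-vehicle 4 (0.0523) or MCT-vehicle 2 and Control 4 together (0.0634).

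Aldh7a1 (ENSRNOG00000014645), an enzyme of lysine breakdown, stood at 47.4, 58.5, 54.6 and 53.4 CPM in Control, at 59.6, 66.0, 59.2 and 59.98 CPM in MCT-vehicle, and at 65.8, 64.1, 68.2 and 67.9 CPM in MCT-Fer-1. Its MCT-vehicle values lay higher than Control by little, and the log2 fold change of 0.19 ± 0.07 had an edgeR adjusted p of 0.0691, and of 0.0449 without Control 2. Aldh5a1 and Aldh6a1, of GABA and valine breakdown, had log2 fold changes of -0.37 ± 0.14 and -0.22 ± 0.09 (adjusted p = 0.0886 and 0.126, edgeR), and Aldh4a1, of proline breakdown, of -0.06 ± 0.09 (adjusted p = 0.681, edgeR).

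The second comparison asked what ferrostatin-1 changed in monocrotaline rats, with vehicle as its control. No member was called by edgeR, as was no gene of the 15257 tested (0%). The smallest adjusted p among the members was 0.227, for Sult1a1. At an unadjusted p below 0.05 there were 3 members, Sult1a1, Aldh6a1 and Aldh3b1, against 12% of all genes. Limma voom called 0 members, as it did 0% of all genes, and DESeq2 called 1, Sult1a1, and 1.55% of all genes. Values of MCT-Fer-1 and MCT-vehicle did not overlap for 3 members, Sult1a1, Aldh3a2 and Aldh1l1, against 6.1% of all genes, and 19 members had a positive and 19 a negative log2 fold change.

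Sult1a1 stood at 137 ± 18.7 CPM in MCT-vehicle and 197 ± 48.6 CPM in MCT-Fer-1 (log2 fold change 0.53 ± 0.15; 95% interval 0.21 to 0.85; unadjusted p = 0.00373, adjusted p = 0.227, edgeR). All 4 MCT-Fer-1 libraries were higher than all 4 MCT-vehicle libraries. Over the alternatives the log2 fold change ran from 0.29 to 0.61 and the adjusted p from 0.0432, with DESeq2, to 0.588. The highest MCT-Fer-1 value, 268 CPM, came from MCT-Fer-1 4, the deepest library.

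Aldh6a1 stood at 90.2, 91.7, 95.7 and 74.2 CPM in MCT-vehicle and at 108, 94.2, 107 and 119 CPM in MCT-Fer-1 (log2 fold change 0.28 ± 0.09; adjusted p = 0.282, edgeR). MCT-Fer-1 2 lay within the MCT-vehicle range. Aldh3a2 had 142, 123, 121 and 131 CPM in MCT-Fer-1 (log2 fold change against MCT-vehicle 0.13 ± 0.06; adjusted p = 0.426, edgeR). In the other direction, the log2 fold change was -0.30 ± 0.13 for Aldh3b1 (adjusted p = 0.382, edgeR), -0.89 ± 0.43 for Aldh1l2 (0.435) and -0.56 ± 0.36 for Gsto2 (0.555), an omega class gene near the detection limit at 0.562 ± 0.228 CPM in MCT-Fer-1.

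The intervals show what size of change these libraries leave possible. For 34 of 38 members the 95% interval of MCT-Fer-1 against MCT-vehicle lay within a 2-fold change either way, and for 23 within 1.5-fold. The 4 wider intervals belonged to Aldh1a7, Aldh1l2, Gsto2 and Ugt8. For Mgst1 the interval on the log2 scale ran from -0.24 to 0.25, for Gsta4 from -0.17 to 0.44, for Aldh2 from -0.15 to 0.23, for Gstp1 from -0.16 to 0.59 and for Ugt1a5 from -0.26 to 0.24.

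**Figure D4:**
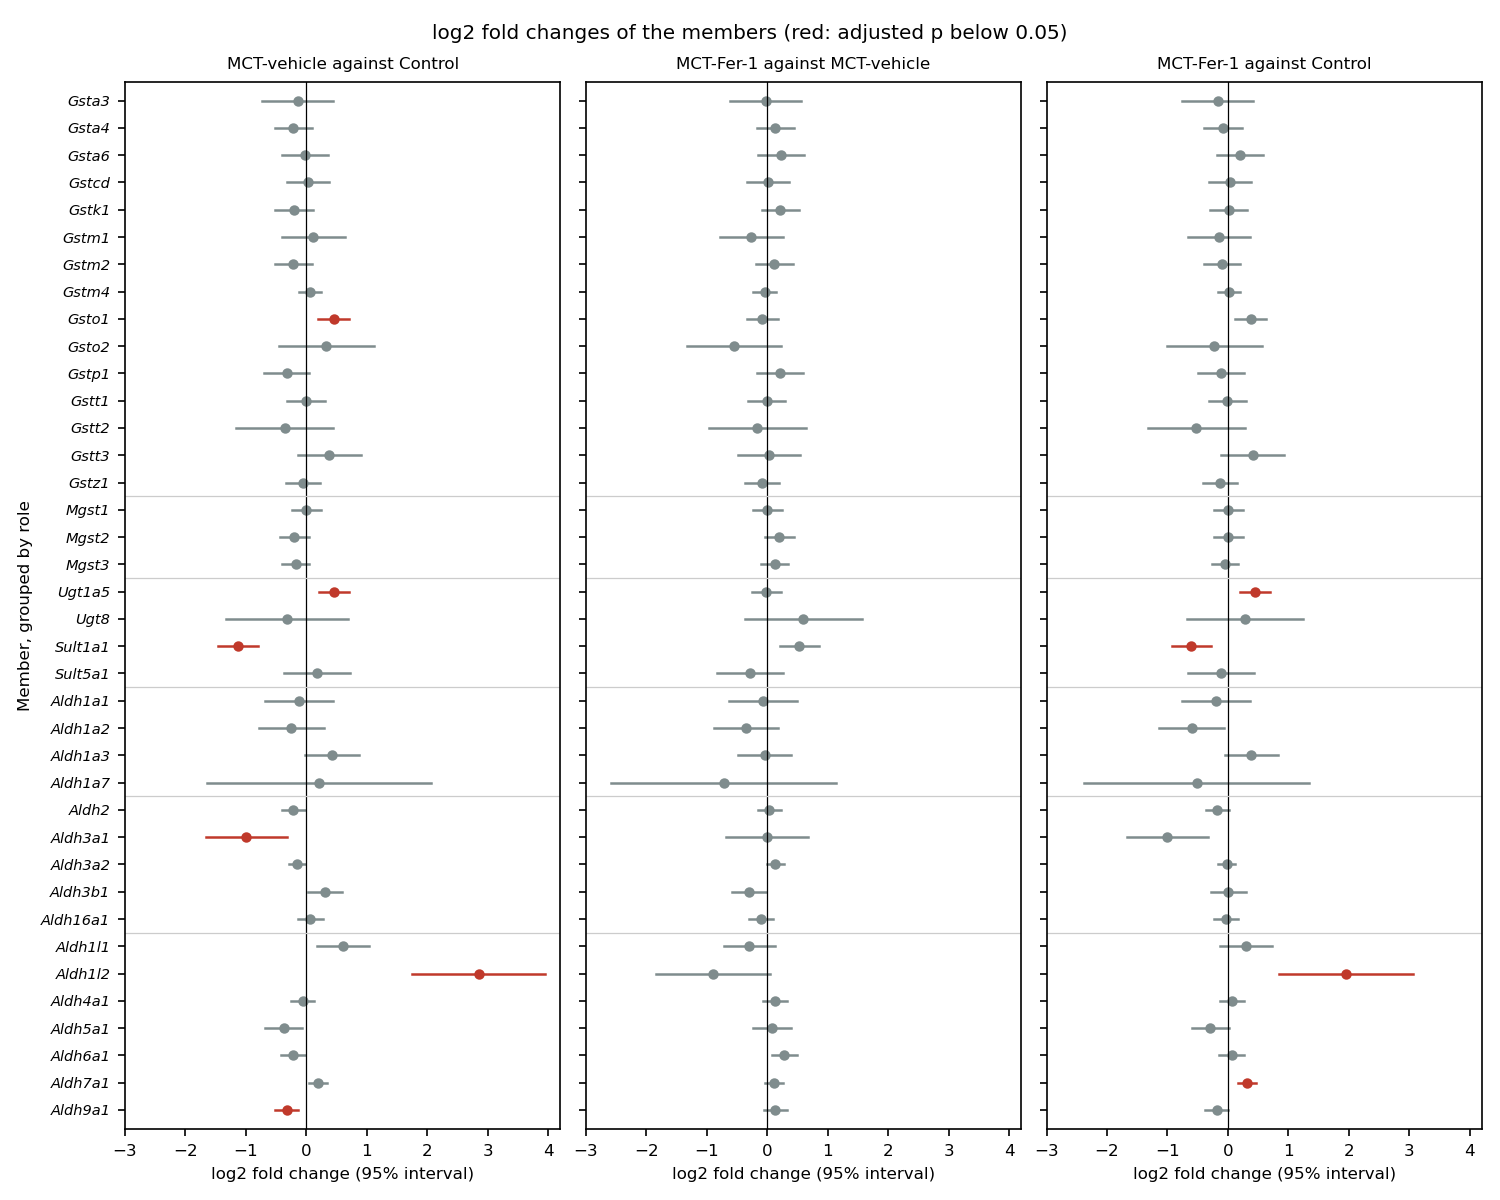
Points are log2 fold changes of the 38 members in the 3 comparisons with their 95% intervals, red where the adjusted p lay below 0.05, with members grouped by role along the vertical axis. There are 6 red members in MCT-vehicle against Control, 0 in MCT-Fer-1 against MCT-vehicle and 4 in MCT-Fer-1 against Control.

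The third comparison set monocrotaline rats given ferrostatin-1 against Control, and shares its controls with the first comparison and its treated libraries with the second. Here 4 members were called, Aldh1l2, Ugt1a5 and Aldh7a1 higher and Sult1a1 lower, which is 10.5% of the members, against 10.8% of all genes (6.67% higher, 4.12% lower). The calls include Aldh1l2, which passed the count limit only through the monocrotaline libraries, so their number stands as no support for a direction. Values did not overlap for 6 members, Aldh1l2 among them, against 19.1% of all genes. The count fell to 1 without Control 2 (7.27% of all genes called), MCT-Fer-1 2 (6.35%) or MCT-Fer-1 3 (6.45%). It fell to 2 without Control 1 (8.04% of all genes) or Control 4 (6.34%). It was also 2 without MCT-vehicle 2 and Control 4 together (6.39%), or without MCT-Fer-1 4 and MCT-Fer-1 1 together (8.41%).

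Sult1a1 had a log2 fold change of -0.60 ± 0.15 against Control in MCT-Fer-1 (adjusted p = 0.0219, edgeR), beside -1.13 ± 0.15 in MCT-vehicle. Its call in MCT-Fer-1 was lost without Control 2 (0.0505), Control 4 (0.0663), MCT-Fer-1 2 (0.0660), MCT-Fer-1 3 (0.0688) or MCT-vehicle 2 and Control 4 together (0.0661). Ugt1a5 had 0.44 ± 0.12 (adjusted p = 0.0279, edgeR), beside 0.45 ± 0.12 in MCT-vehicle, with MCT-Fer-1 libraries within 45.9 to 48.6 CPM. Its call was lost without any Control library or MCT-Fer-1 2, 3 or 4 (0.0562 to 0.0750), without MCT-vehicle 2 and Control 4 (0.0734) and without MCT-Fer-1 4 and 1 (0.109).

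Aldh1l2 had a log2 fold change of 1.95 ± 0.51 (adjusted p = 0.0289, edgeR), beside 2.85 ± 0.51 in MCT-vehicle, and lost the call without Control 1, 2 or 3 or MCT-Fer-1 2 or 3 (0.0710 to 0.0831). As it passed the count limit only through the monocrotaline libraries, these values are a description. Aldh7a1 rose from 53.5 ± 4.57 to 66.5 ± 1.94 CPM (log2 fold change 0.31 ± 0.07; adjusted p = 0.0121, edgeR), beside 0.19 ± 0.07 in MCT-vehicle. All 4 MCT-Fer-1 values of Aldh7a1 lay higher than all of Control, and the call was lost only when MCT-Fer-1 4 and MCT-Fer-1 1 were left out together (0.0703). Gsto1 and Aldh3a1 had log2 fold changes of 0.37 ± 0.12 and -1.002 ± 0.31 (adjusted p = 0.0624 and 0.0570, edgeR). Gsto1 was called with DESeq2 (0.0326), with voom (0.0251), in a fit of the compared groups alone (0.0358) and without MCT-vehicle 1 (0.0445) or MCT-vehicle 3 (0.0343). Aldh3a1 was called with DESeq2 (0.0162), with voom (0.0364) and without Control 3 (0.0269) or MCT-Fer-1 1 (0.0324). Aldh1a2 stood at 43.4 ± 10.6 CPM in MCT-Fer-1, lower than Control without overlap (log2 fold change -0.60 ± 0.24; adjusted p = 0.147, edgeR, 0.0442 with voom, 0.0313 in a fit of the compared groups alone and 0.0494 without MCT-vehicle 1).

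Genes that feed, export or undo conjugation were read from lists beside the members. In MCT-vehicle against Control 10.3% of all genes rose and 8.28% fell, and the counts of each list stand beside these shares. No list was tested as a set. Of 12 tested genes of glutathione supply, 2 rose and 1 fell in MCT-vehicle against Control, the cystine transporter gene Slc7a11 by 2.90 ± 0.61 on the log2 scale (adjusted p = 0.00633, edgeR) and glutathione synthetase (Gss) by 0.40 ± 0.10 (0.0142). Of 9 genes that supply glucuronate and sulfate donors 1 rose, the PAPS transporter gene Slc35b2, by 0.31 ± 0.09 (0.0244). Of 6 genes listed for the hydrolysis of conjugates 3 rose, among them the glucuronidase gene Gusb by 0.50 ± 0.10 (0.00554). Another was Sumf2, by 0.40 ± 0.10 (0.0161), which is named as a sulfatase modifying factor and is not itself a hydrolase. Among the conjugate exporters, Abcc5 rose by 0.34 ± 0.11 (0.0406).

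Of 9 other conjugating enzymes, 3 rose and 1 fell in MCT-vehicle against Control, the acetyltransferase gene Nat1 by 0.38 ± 0.08 (adjusted p = 0.00623, edgeR) and the nicotinamide methyltransferase gene Nnmt by 0.81 ± 0.20 (0.0118). Of 18 other carbonyl and epoxide enzymes, 2 rose and 1 fell, with the epoxide hydrolase gene Ephx1 at 0.70 ± 0.11 (8.32e-04) and the aldehyde reductase gene Akr7a3 at -0.98 ± 0.23 (0.0101). Of 17 retinoid genes 1 rose and 3 fell, with the retinoid X receptor genes Rxrg at -1.77 ± 0.33 (0.00310) and Rxrb at -0.33 ± 0.08 (0.00993). Of 15 regulators 2 rose and 3 fell, with the coactivator gene Ppargc1a at -1.61 ± 0.31 (0.00357) and the NRF2 gene Nfe2l2 at 0.29 ± 0.06 (0.00751).

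In MCT-Fer-1 against MCT-vehicle, edgeR called 0 genes in each of these 8 lists, as it called 0 of all genes. Against Control, MCT-Fer-1 had 1 higher in glutathione supply and 1 in hydrolysis of conjugates, 2 higher among other conjugating enzymes, 3 higher among carbonyl and epoxide enzymes, and 0 in donor supply. It had 1 lower among exporters, 2 lower among retinoid genes and 2 lower among regulators. Of all genes, 6.67% were higher and 4.12% lower there. Ephx1 stood at 116 ± 13.1 CPM in Control and 189 ± 23.4 CPM in MCT-vehicle, with 221 ± 21.2 CPM in MCT-Fer-1, a log2 fold change of 0.94 ± 0.11 in MCT-Fer-1 against Control (adjusted p = 1.76e-04, edgeR).

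The spread among replicates of the members was set beside that of all genes. The median SD over the mean was 12.1% for the members in Control, 16.0% in the MCT-vehicle libraries and 13.8% in MCT-Fer-1, against 11.04%, 14.0% and 11.5% for all genes. The smallest spread in MCT-vehicle was that of Aldh3a2 (2.83%) and in MCT-Fer-1 that of Gstm4 (1.63%). MCT-vehicle 3 had the highest value of 7 members and the lowest of 6, and MCT-vehicle 2 the highest of 5 and the lowest of 6. Control 4 had the highest value of 7 members and the lowest of 3.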

How the data were processed

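RNA of 12 whole-lung libraries was sequenced. The deposited table holds unnormalised read counts, which the authors named so per the file headers. It also holds 3 columns of a signal, the authors' mean of each group, which equalled the mean of the 4 libraries within 0.01 in all 32883 genes and was not used further. Which aligner, counter, strand setting and build the authors used is not given in the sources used here. The only coordinates printed are those of the promoter windows, from RefSeq on GRCr8. Sample titles gave group and replicate number. Totals of 11601929 to 70627239 counts a library put the floor of 3 counts at 0.0425 to 0.259 CPM.

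Genes kept by filterByExpr (15257) were fitted over all 12 libraries with edgeR 4.0.16 in R 4.3.3 (TMM scaling, robust quasi-likelihood, 9 residual degrees of freedom), with calls at an adjusted p below 0.05 (Benjamini-Hochberg). The SE is the log2 fold change over the square root of F. The test was also run on counts simulated with the spread that edgeR estimated from these same libraries. Such a run cannot show that the model suits the real spread. Libraries of a group differed by more than counting noise, with chi-square over its degrees of freedom at 10.2 or more. Alternatives were other scalings, no filter, DESeq2 1.42.0, limma 3.58.1 voom, fits of the groups compared, a replicate block and leaving out libraries.

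The members, the gene lists and the marker lists were chosen with earlier results of these data known. Named were all members called, the 3 with the smallest p in each direction in MCT-Fer-1 against MCT-vehicle, a fixed set of well-known members, and the 2 genes with the smallest p of each list. Outside this rule, Aldh1a7, Aldh4a1, Aldh5a1, Aldh16a1, Sult5a1, Gstm4, Gstcd, Marco, Alb, Tf, Serpina1, Cyp2e1 and the names under the count limit were named after their values were seen. Gsta3 was named for its motif matches alone. Ugt1a6 of the set had no row in the table and was not analysed here, and Aldh18a1 lay under the count limit. A result of the exporter list in MCT-vehicle against Control is not reported here.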

Additional observations from a re-analysis of the deposited data

Results flagged for a closer look

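Of 114 groups of 4 values (38 members in 3 groups), 3 held a value farther from the other 3 than Dixon's limit for 4 samples allows, and chance gives about 1 in 20, or 5.7. Aldh7a1 stood at 66.0 CPM in MCT-vehicle 2, against 59.2 to 59.98 CPM in the other MCT-vehicle libraries. Mgst2 stood at 26.6 CPM in MCT-vehicle 2, against 35.4 to 36.2 CPM. Gstm1 stood at 52.0 CPM in MCT-Fer-1 3, against 71.5 to 72.2 CPM in the other MCT-Fer-1 libraries.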

How the results depend on the processing

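No log2 fold change of a called member changed sign in any of the 21 alternatives, of which 2 were added after seeing the data (leaving out MCT-vehicle 2 with Control 4, and MCT-Fer-1 4 with MCT-Fer-1 1). Of 10 calls, 2 held in all of them, that of Sult1a1 in MCT-vehicle against Control and that of Aldh1l2 there, which is no support because Aldh1l2 passed the count limit only through monocrotaline libraries, and of 104 results with no call 9 were called in at least 1. In MCT-vehicle against Control 6 members were called (18.6% of all genes). With a library left out, 3 to 7 were called (13.1% to 18.5% of all genes). Without MCT-vehicle 2 and Control 4, 2 were called (10.9% of all genes). In MCT-Fer-1 against MCT-vehicle the count was 0, and 0 with any library left out and 1 with DESeq2, which called 237 of all genes, against 0 in the main test. Over all genes, 41 were called there without MCT-vehicle 3, 3 without Control 2, 2 without MCT-Fer-1 4 and 1 in the fit of those groups alone. In MCT-Fer-1 against Control 4 members were called (10.8% of all genes), and 7 with limma voom (15.5% of all genes). With a library left out, 1 to 6 were called (6.34% to 11.1% of all genes). There were 2 without MCT-vehicle 2 and Control 4 (6.39%) and 2 without MCT-Fer-1 4 and MCT-Fer-1 1 (8.41%). Counts over all genes fell from 2843 to 1675 in MCT-vehicle against Control without MCT-vehicle 2 and Control 4. They fell from 1646 to between 977 and 995 in MCT-Fer-1 against Control without Control 4 (978), MCT-Fer-1 2 (977), MCT-Fer-1 3 (995) or MCT-vehicle 2 and Control 4 (978). The replicate block gave 5, 0 and 4 members in the order above, without Aldh3a1 in the first (adjusted p = 0.0807, edgeR). Same-numbered libraries deviated together with r of -0.0633 to 0.102, others with -0.172 to 0.150, so the numbers were not taken to pair samples. Depth limits Aldh1l2, Gsto2 and Ugt8, which had fewer than 10 counts in some libraries.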

Other observations

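Among names left out by the count limit, a few libraries stood apart. Gstm5, a mu class GST, had 70 counts in MCT-vehicle 1 and 32 in MCT-vehicle 3, and 0 to 7 in the other 10 libraries. Sult1c3 had 21 counts in MCT-vehicle 2 and 0 to 2 elsewhere. Aldh18a1, an enzyme of proline synthesis, had 15 counts over all 12 libraries.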
